A study of Homo sapiens with 2 samples.

Results

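The genes described here are the MHC class I heavy chains HLA-B, HLA-C, HLA-E, HLA-F and HLA-G, the shared light chain B2M, the peptide transporter TAP1 and TAP2, and tapasin, TAPBP. They were taken by symbol from the gene list of the deposited count matrices, and all 9 were found once among 36601 genes. The data come from 2 single-cell RNA libraries, each made from organoids that the study directed towards colon from 1383D6, a human induced pluripotent stem cell line, in order to model ulcerative colitis. The CNT library is from untreated organoids. The 3CK library is from organoids kept for 8 days with IFN-γ, IL-1β and TNF-α together, so the effect of each cytokine cannot be told apart. Both share the line and its differentiation with Activin A, then FGF2, then, in Matrigel, EGF, forskolin, PD98059 (a MEK inhibitor), 5-aza-2'-deoxycytidine (an inhibitor of DNA methylation) and A-83, so the untreated level is also one of cells given these agents. Cells were released with trypsin, and about 8300 were loaded per library. There is 1 library per group, so every difference below has no replicate check, and each interval (95%) covers counting error only.

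MHC class I molecules show fragments of a cell's own proteins to CD8 T cells. The proteasome cuts the fragments, TAP1 and TAP2 pump them into the endoplasmic reticulum, tapasin holds the transporter close to waiting heavy chains, and the loaded heavy chain travels to the surface bound to B2M. Interferon-γ is known to raise the whole route in intestinal epithelium, through IRF1 and the class I transactivator NLRC5, and NF-κB acts on heavy chain and B2M promoters. HLA-B and HLA-C are the classical heavy chains, while HLA-E, HLA-F and HLA-G vary little between people and engage receptors of natural killer and other immune cells.

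In the GENCODE annotation of GRCh38, the build named in the submitters' processing notes, B2M lies at chr15:44711358-44718851 on the plus strand. The other 8 genes lie within 3591509 bases on chromosome 6. HLA-F (chr6:29722775-29738528), HLA-G (chr6:29826967-29831125) and HLA-E (chr6:30489509-30494194) are on the plus strand. HLA-C (chr6:31268749-31272130), HLA-B (chr6:31353872-31367067), TAP2 (chr6:32821833-32838739), TAP1 (chr6:32845209-32853816) and TAPBP (chr6:33299694-33314284) are on the minus strand. These are whole gene spans, and the reads counted come mostly from the 3' end of each transcript.

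Since the genes were higher together in 3CK, as given below, their promoter sequences are shown for the motifs of the pathways the added cytokines are known to use. RefSeq promoters (GRCh38.p14, 250 bases before to 50 after each start) were matched for 8 of the 9 genes, in 11 entries. Both strands were searched for the interferon-stimulated response element core (GAAA, any 2 bases, GAAA), the GAS element TTCNNNGAA, the NF-κB consensus, the TGACG letters of the X2 box and the inverted CCAAT box ATTGG. The 6 sequences below are the 200 bases before the start in the orientation of the gene, from the reference and not from the line, and capitals mark matches to the first 3 of these motifs.
B2M: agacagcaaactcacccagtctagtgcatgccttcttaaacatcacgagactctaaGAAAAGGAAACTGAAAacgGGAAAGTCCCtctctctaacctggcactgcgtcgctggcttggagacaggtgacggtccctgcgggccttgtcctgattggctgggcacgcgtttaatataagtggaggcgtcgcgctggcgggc
HLA-B: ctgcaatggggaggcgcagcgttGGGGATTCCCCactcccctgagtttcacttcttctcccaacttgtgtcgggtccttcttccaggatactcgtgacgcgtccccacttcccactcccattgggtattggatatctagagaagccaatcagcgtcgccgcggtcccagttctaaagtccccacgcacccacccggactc
HLA-C: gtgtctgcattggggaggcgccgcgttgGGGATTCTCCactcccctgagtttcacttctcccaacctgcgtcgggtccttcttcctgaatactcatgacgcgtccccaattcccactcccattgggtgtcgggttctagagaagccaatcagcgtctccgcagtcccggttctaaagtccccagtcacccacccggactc
HLA-F: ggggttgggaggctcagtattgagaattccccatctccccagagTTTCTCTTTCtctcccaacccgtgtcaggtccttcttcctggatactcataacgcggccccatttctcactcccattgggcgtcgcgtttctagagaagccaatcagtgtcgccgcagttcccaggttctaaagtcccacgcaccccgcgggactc
TAP1: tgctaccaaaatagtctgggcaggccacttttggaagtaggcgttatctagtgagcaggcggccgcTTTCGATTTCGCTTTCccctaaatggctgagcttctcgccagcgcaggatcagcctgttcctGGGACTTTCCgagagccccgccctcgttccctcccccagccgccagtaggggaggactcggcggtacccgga
TAPBP: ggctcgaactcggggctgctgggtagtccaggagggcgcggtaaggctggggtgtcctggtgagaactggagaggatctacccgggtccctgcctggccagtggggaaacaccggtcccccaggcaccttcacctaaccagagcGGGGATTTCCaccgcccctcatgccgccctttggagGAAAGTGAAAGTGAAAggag

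These stretches lie at chr15:44711317-44711516 (plus strand) for B2M and chr6:29723234-29723433 (plus) for HLA-F. On the minus strand they lie at chr6:31357180-31357379 for HLA-B, chr6:31272093-31272292 for HLA-C, chr6:32853705-32853904 for TAP1 and chr6:33314079-33314278 for TAPBP. The sequences fell into groups by what they hold. The B2M, TAP1 and TAPBP promoters each hold 2 overlapping response element cores and at least 1 NF-κB match. HLA-B and HLA-C hold an NF-κB match at almost the same distance from the start, -177 and -172, and no exact match to the response element core. HLA-F holds a core at -156 and no NF-κB match. TAP2, not printed, holds 1 core, GAAAGCGAAA at -58. TAP1 has a further entry, with a GAS element as its only match to these 3 motifs. An HLA-G entry holds the NF-κB match GGGAGGCCCC at -177, and its other 2 entries hold none of the 3 motifs. Of the 35116 promoters in the table, 3.57% hold the core, 11.3% the NF-κB consensus, 7.66% a GAS element and 0.276% both the core and the NF-κB consensus. A match describes letters in this window and is not a measured binding site. Looser forms of the motifs were not searched, so the lack of a match does not show that a promoter lacks the element.

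The CNT library kept 2487 of 3257 barcodes and the 3CK library 1398 of 1641, with 101831571 and 91860414 UMIs (unique molecular identifiers, each standing for 1 captured transcript). The median depth was 28911 UMIs per cell in CNT and 62746 in 3CK, and no barcode was shared. Epithelial cells were those with at least 2 EPCAM UMIs per 10000, 1660 in CNT (66.7%) and 1016 in 3CK (72.7%). Mesenchymal cells were those with at least 5 UMIs of COL1A1, COL1A2 and COL3A1 per 10000 and under 1 of EPCAM, 574 in CNT (23.1%) and 124 in 3CK (8.87%), leaving 253 and 258 in neither class. Both classes are ranges of a level, not cell types, and 168 CNT and 150 3CK epithelial cells lay near the EPCAM boundary, as did 53 and 38 mesenchymal cells near the collagen boundary. The epithelial class also held 497 CNT cells with collagen UMIs above the boundary, 85.9% of them under 10000 UMIs, and 49 such 3CK cells.

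The class labels were read beside marker lists, which include EPCAM and the 3 collagens that define the classes, so those genes are no check. All 8 epithelial markers were at 10 CPM (the UMIs of a gene scaled to the same total in each library or class) or more in the epithelial class, and all 10 mesenchymal markers in the mesenchymal class, in both libraries. That level did not separate the classes. In the mesenchymal class 7 (CNT) and 6 (3CK) of the 8 epithelial markers reached it. In the epithelial class 6 (CNT) and 4 (3CK) of the 10 mesenchymal markers did. The mesenchymal class also carried the keratin KRT18 (4930 and 6968 CPM), with EPCAM at 20.5 and 17.2 CPM. The epithelial class carried little of the labelled colon identity: 6 colonic and hindgut markers summed to 219 CPM in CNT and 144 CPM in 3CK, with CDX2 at 80.6 and 83.3 CPM and MUC2 at 1.04 and 0.64 CPM, whereas 5 hepatic markers led by TTR summed to 94449 and 30653 CPM. Leukocytes are rich in class I transcripts, so 9 of their markers were read too: they summed to 97.5 and 115 CPM in the epithelial class and to 56.8 and 199 CPM in the mesenchymal class. In the mesenchymal class CD68 stood at 26.7 CPM in CNT and at 91.4 CPM in 3CK, and TYROBP at 27.1 and 87.9 CPM. FCER1G (1.68 and 15.7 CPM) and PTPRC (0.56 and 3.62 CPM) were lower in level. CD3E and NKG7 were at 0 in its 3CK cells.

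All 9 genes were higher in the cytokine-treated library, and the whole set went from 0.232% of all UMIs in CNT to 1.99% in 3CK. Each gene was at least 4-fold higher, against 2.91% of the 10259 genes that reached 10 CPM in CNT or 3CK. Of those genes 6.43% were at least 2-fold higher and 7.34% at least 2-fold lower, a direction none of the 9 took. HLA-F (3.05 CPM), HLA-G (0.93 CPM) and TAP2 (6.65 CPM) were under 10 CPM in CNT and passed it only in 3CK. For these 3 genes the comparison with the share of genes is not on the same footing. The median log2 ratio of 3CK over CNT was 3.92 over the 9 genes and 0.01 over all genes. The size of the difference ran from 4.6-fold for TAPBP to 97.2-fold for HLA-F, and the genes with the lowest untreated levels had some of the largest ratios.

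B2M, the light chain every class I molecule needs, stood at 1433 CPM (1425 to 1440) in CNT and 9349 CPM (9329 to 9369) in 3CK. That is 6.53-fold, a log2 ratio of 2.71 (2.70 to 2.71). B2M was the most abundant of the 9 genes in both libraries, with 145880 and 858809 UMIs, but its share of their summed UMIs was 61.6% in CNT and 46.9% in 3CK.

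The classical heavy chains had larger ratios than the light chain. HLA-B stood at 336 CPM (332 to 339) in CNT and 5066 CPM (5051 to 5080) in 3CK, a log2 ratio of 3.92 (3.90 to 3.93), or 15.1-fold. HLA-C stood at 360 CPM (357 to 364) and 3389 CPM (3377 to 3401), a log2 ratio of 3.23 (3.22 to 3.25). The order of the pair therefore differed between the libraries: HLA-C was slightly above HLA-B in CNT, and HLA-B was above HLA-C in 3CK. The HLA-B share of the 9 genes was 14.4% in CNT and 25.4% in 3CK, while that of HLA-C was 15.5% and 17.0%. Counting can split reads between near-identical HLA genes: 0.680% of the 60-base windows in the last 500 bases of HLA-B, 0.680% of those of HLA-C and 2.49% of those of HLA-G also occur in a transcript of another gene, and none of the other members' windows do. These windows are of the reference, and the HLA alleles of the line are not known here, so reads could be misplaced beyond these shares.

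The 3 non-classical heavy chains differed widely in level. HLA-E, the ligand of the CD94 and NKG2A receptor of natural killer cells, stood at 108 CPM (106 to 110) in CNT and 827 CPM (821 to 833) in 3CK, a log2 ratio of 2.93 (2.91 to 2.96). HLA-F was counted 311 times in the untreated library and 27281 times in the treated one. That made 3.05 CPM (2.72 to 3.41) and 297 CPM (293 to 301), a log2 ratio of 6.60 (6.44 to 6.77). HLA-G, known from trophoblast, had 95 and 1710 UMIs, so 0.93 CPM (0.75 to 1.14) and 18.6 CPM (17.7 to 19.5), a log2 ratio of 4.32 (4.02 to 4.63). HLA-F thus went from the second-lowest of the 9 genes to the level of TAPBP, while HLA-G was the lowest in both libraries. Of 5 trophoblast markers, KRT7 stood at 349 CPM in CNT and at 238 CPM in 3CK, PEG10 at 184 and 95.9 CPM, CGA at 45.9 and 1.79 CPM, TFAP2A at 7.16 and 5.87 CPM, and GATA3, the only one higher in 3CK, at 29.2 and 45.5 CPM. The part of cells with these markers in the HLA-G level was not tested, nor was that of misplaced reads of the far more abundant HLA-B and HLA-C.

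The 2 subunits of the transporter, which work as a pair, were both low in CNT. TAP1 stood at 11.9 CPM (11.2 to 12.6) in CNT and 539 CPM (535 to 544) in 3CK, a log2 ratio of 5.50 (5.42 to 5.59). TAP2 stood at 6.65 CPM (6.16 to 7.17) and 155 CPM (153 to 158), a log2 ratio of 4.54 (4.43 to 4.66). The UMIs counted at the 3' end are not divided by length, so these levels compare transcript molecules, and TAP1 was above TAP2 in both libraries. TAPBP had the smallest ratio of the 9 genes: it stood at 64.5 CPM (62.9 to 66.0) in CNT and 297 CPM (293 to 300) in 3CK, a log2 ratio of 2.20 (2.16 to 2.24).

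**Figure D1:**
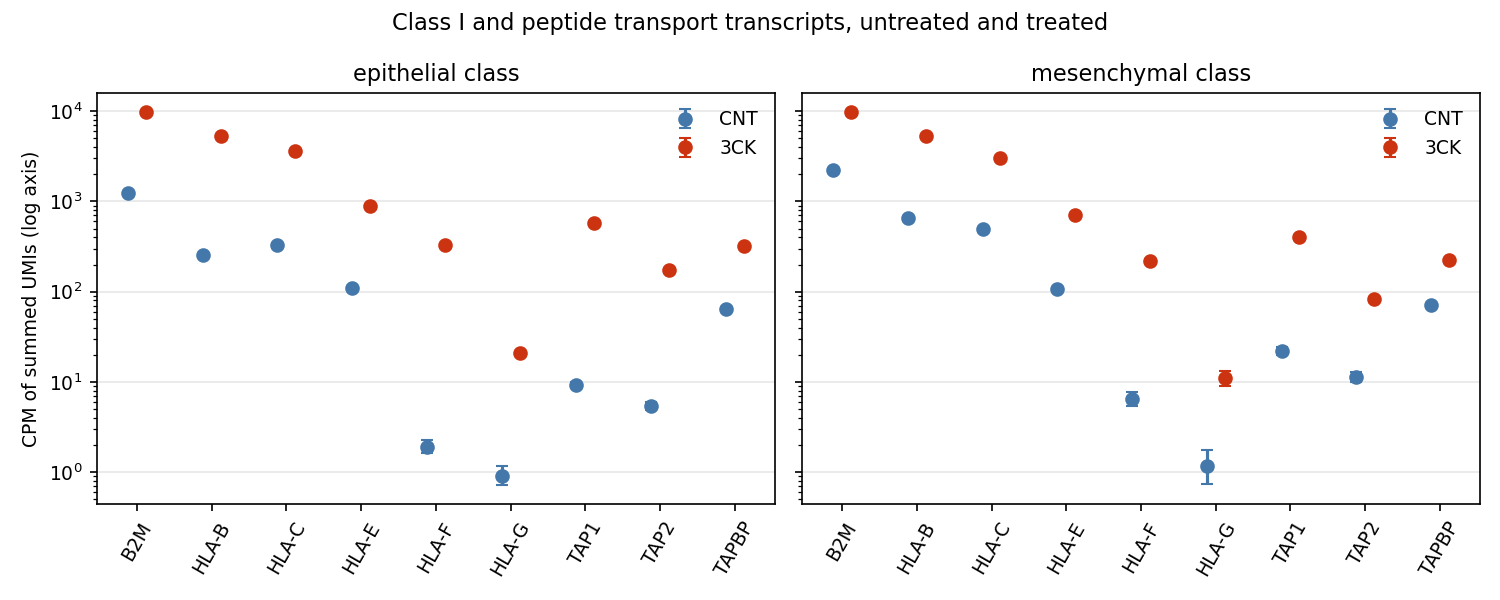
Level of each of the 9 genes in CPM of summed UMIs (log axis) in the epithelial class (left) and the mesenchymal class (right), with CNT in blue and 3CK in red. Points are 1 library each and bars are exact Poisson intervals (95%), mostly smaller than the points; every 3CK point is above its CNT point, from 4.97-fold (TAPBP) to 171-fold (HLA-F) in epithelial cells.

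The next comparison set the 2 classes of untreated cells side by side. Mesenchymal cells of CNT carried more class I transcripts than epithelial cells: the 9 genes made up 0.359% of their UMIs, against 0.203% in epithelial cells. B2M stood at 1250 CPM (1242 to 1258) in epithelial and 2218 CPM (2197 to 2239) in mesenchymal cells. HLA-B stood at 256 CPM (252 to 259) and 653 CPM (642 to 665), and HLA-C at 332 CPM (328 to 336) and 501 CPM (491 to 511). HLA-B was thus below HLA-C in epithelial cells and above it in mesenchymal cells.

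HLA-F and the transporter showed the same direction in CNT. HLA-F had 146 UMIs in epithelial cells (1.92 CPM, 1.62 to 2.25) and 127 in mesenchymal cells (6.46 CPM, 5.39 to 7.69). TAP1 stood at 9.18 CPM (8.51 to 9.88) and 22.0 CPM (20.0 to 24.2), and TAP2 at 5.41 CPM (4.90 to 5.96) and 11.5 CPM (10.0 to 13.0). HLA-E was level, at 111 CPM (109 to 113) and 107 CPM (103 to 112). TAPBP was slightly higher in mesenchymal cells, at 63.9 CPM (62.2 to 65.8) and 70.7 CPM (67.0 to 74.5). HLA-G had 70 UMIs in epithelial and 23 in mesenchymal cells, or 0.92 CPM (0.72 to 1.16) and 1.17 CPM (0.74 to 1.76), which counting error does not separate.

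Of the 9 genes, 4 (HLA-B, HLA-F, TAP1 and TAP2) were at least 2-fold higher in the CNT mesenchymal class, where 21.1% of the 10891 genes that reached 10 CPM in either class were, and 12.2% were at least 2-fold lower, as no member was. HLA-F and HLA-G were under 10 CPM in both classes, and TAP1 and TAP2 passed that level only in the mesenchymal class, so the members' count is not on the same footing as the share of genes. The median log2 ratio of mesenchymal over epithelial was 0.83 for the 9 genes and 0.28 for all genes. This count depended on the scaling. With TMM factors, which moved the median of all genes from 0.28 to -0.10, the log2 ratio was 0.97 for HLA-B, 0.87 for TAP1, 0.70 for TAP2 and 1.37 for HLA-F, and that of HLA-E, HLA-G and TAPBP was below 0 (-0.44, -0.04 and -0.24). With each cell weighted equally the values were 0.74 for HLA-B, 0.66 for TAP1, 0.33 for TAP2 and 0.14 for HLA-F, and 2.14 for HLA-G. With equal weights among cells of at least 10000 UMIs they were 1.30, 1.48, 1.27 and 1.91 for HLA-B, TAP1, TAP2 and HLA-F. Cells under 10000 UMIs made up 39.0% of the epithelial and 45.8% of the mesenchymal class of CNT.

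In the treated library the classes stood close together, and the direction for most genes was the other way. The 9 genes made up 2.09% of the UMIs of epithelial cells and 1.97% of those of mesenchymal cells. B2M stood at 9698 CPM (9675 to 9721) in epithelial and 9684 CPM (9620 to 9748) in mesenchymal cells, and HLA-B at 5243 CPM (5226 to 5260) and 5373 CPM (5326 to 5421). HLA-C stood at 3639 CPM (3625 to 3653) in epithelial cells and 2990 CPM (2954 to 3025) in mesenchymal cells, and HLA-E at 879 CPM (872 to 885) and 704 CPM (687 to 721). So the 2 most abundant genes were level between the classes, and HLA-C and HLA-E were higher in the epithelial class.

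The transporter and the rarer heavy chains were also higher in treated epithelial cells. HLA-F stood at 328 CPM (324 to 332) in epithelial and 218 CPM (209 to 228) in mesenchymal cells, and HLA-G at 21.1 CPM (20.0 to 22.2) and 10.97 CPM (8.93 to 13.3). TAP1 stood at 579 CPM (574 to 585) and 400 CPM (387 to 413), TAP2 at 172 CPM (169 to 175) and 82.2 CPM (76.4 to 88.3), and TAPBP at 318 CPM (313 to 322) and 222 CPM (212 to 232). No member was at least 2-fold higher in the mesenchymal class of 3CK, where 15% of 10317 genes were. TAP2 was at least 2-fold lower there, with a log2 ratio of -1.06 (-1.17 to -0.96), as 13.3% of genes were, and of -0.79 with each cell weighted equally. With TMM factors HLA-G also passed that size, at -1.12.

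**Figure D2:**
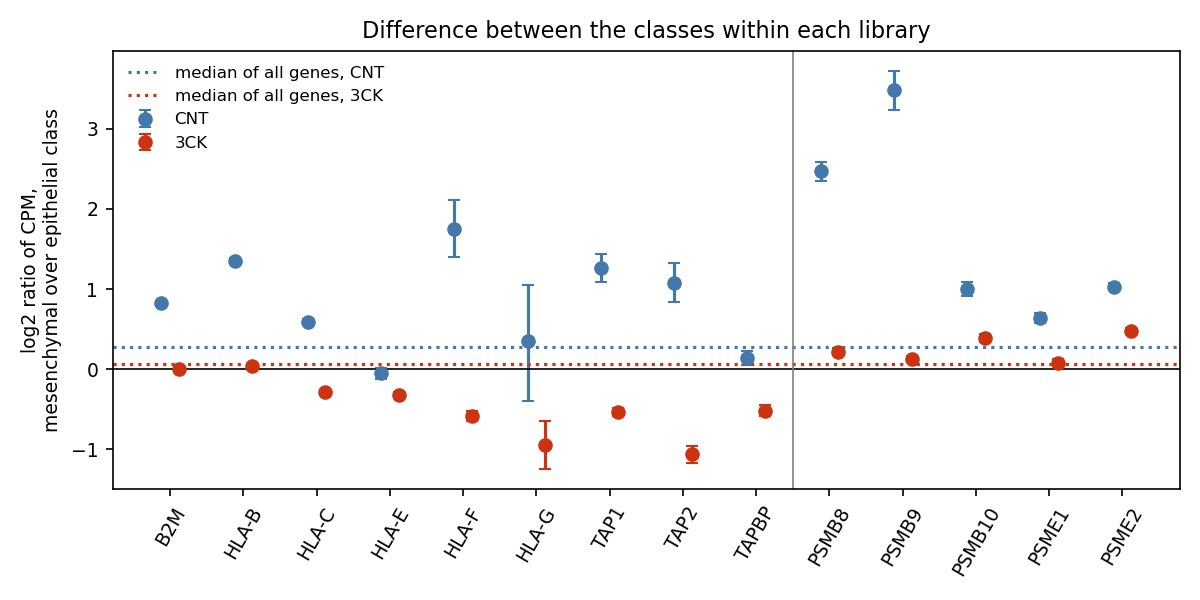
Log2 ratio of CPM, mesenchymal over epithelial class, within CNT (blue) and within 3CK (red) for the 9 genes and, right of the grey line, 5 immunoproteasome and PA28 genes, with 95% counting intervals and dotted lines at the median of all genes (0.28 in CNT, 0.07 in 3CK). The CNT points of HLA-B, HLA-F, TAP1 and TAP2 lie above 1, and the 3CK points of all 9 genes lie between -1.06 and 0.04.

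Within each class, all 9 genes were at least 2-fold higher in 3CK than in CNT. The background was 7.88% of 9786 genes in epithelial cells and 4.8% of 10272 genes in mesenchymal cells. At least 2-fold lower were 7.62% and 9.59% of genes and none of the 9. HLA-F and HLA-G passed the 10 CPM minimum of that background only in 3CK in both classes, as did TAP1 and TAP2 in epithelial cells. Their part of the count is therefore not on the same footing as the share of genes. The median log2 ratio of the 9 genes was 4.36 in epithelial and 2.84 in mesenchymal cells, while that of all genes was 0.07 and -0.12. In cells of neither class the 9 log2 ratios were also above 0, from 2.21 for TAPBP to 4.96 for TAP1.

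In summed UMIs, the ratio was larger in epithelial than in mesenchymal cells for each of the 9 genes. For the heavy chains, the log2 ratios in epithelial and mesenchymal cells were 4.36 (4.34 to 4.38) and 3.04 (3.01 to 3.07) for HLA-B. They were 3.46 (3.44 to 3.47) and 2.58 (2.54 to 2.61) for HLA-C, and 2.98 (2.95 to 3.02) and 2.72 (2.65 to 2.79) for HLA-E, the smallest gap in these sums. HLA-F had the largest gap in these sums, at 7.42 (7.18 to 7.66) and 5.08 (4.82 to 5.35), and HLA-G had 4.52 (4.18 to 4.89) and 3.23 (2.56 to 3.95).

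B2M had 2.96 (2.95 to 2.97) in epithelial and 2.13 (2.11 to 2.14) in mesenchymal cells. For the transporter the log2 ratios were 5.98 (5.87 to 6.09) and 4.18 (4.04 to 4.33) for TAP1, and 4.99 (4.85 to 5.13) and 2.84 (2.63 to 3.06) for TAP2. For TAPBP they were 2.31 (2.27 to 2.36) and 1.65 (1.55 to 1.75). The gap between the classes, epithelial minus mesenchymal, was at least 1 for 5 genes. It was 1.32 (1.28 to 1.35) for HLA-B, 2.34 (1.99 to 2.69) for HLA-F and 1.29 (0.55 to 2.03) for HLA-G. For TAP1 it was 1.80 (1.62 to 1.98) and for TAP2 2.15 (1.89 to 2.40). The interval of HLA-G reaches below 1, so counting error leaves its place among the 5 unsettled. Such a gap was held by 13.2% of 11417 genes, and the median gap of all genes was 0.18. Those genes reached 10 CPM in either class of either library. HLA-F and HLA-G did so only in 3CK, so their part of the count is not on the same footing as the share of genes.

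With each cell weighted equally the gap was 0.75 for HLA-B, 0.67 for HLA-F, 3.06 for HLA-G, 1.25 for TAP1 and 1.11 for TAP2, so 3 genes were at 1 or more. The smallest was then that of TAPBP, 0.14, and that of HLA-E was 0.42. For B2M and HLA-B the gap lay on the untreated side, since they differed between the classes in CNT and were level in 3CK. HLA-C differed on both sides, at 0.59 in CNT and -0.28 in 3CK for mesenchymal over epithelial. HLA-E differed mainly on the treated side in these sums, at -0.05 and -0.32, but had -0.44 and -0.50 with TMM factors, so its side depended on the scaling. TAP2, like HLA-C, differed on both sides, with log2 ratios of mesenchymal over epithelial of 1.08 (0.84 to 1.32) in CNT and -1.06 in 3CK. The mesenchymal class was smaller in 3CK and its collagens lower, COL1A1 being 3010 CPM before and 906 CPM with treatment, and a different range of cells in the class cannot be told apart from the treatment. The part of that shift, and of the leukocyte markers given above, in the mesenchymal ratios was not tested.

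**Figure D3:**
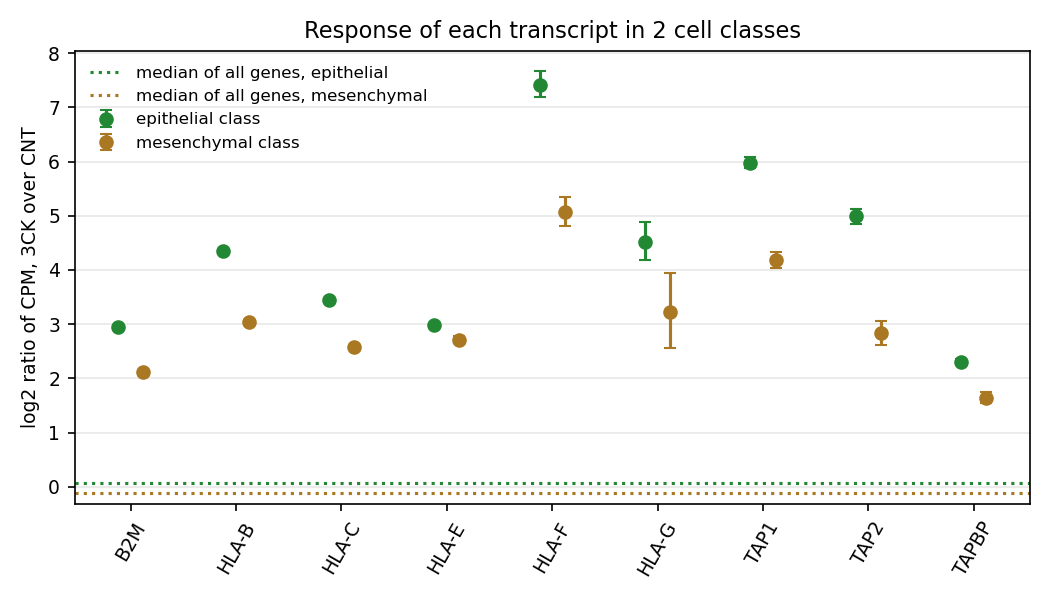
Log2 ratio of CPM, 3CK over CNT, of each of the 9 genes in the epithelial (green) and mesenchymal (brown) class, with 95% counting intervals, 1 library per group and dotted lines at the median of all genes (0.07 and -0.12). The epithelial point is above the mesenchymal point for each gene, by 0.27 for HLA-E and by 2.34 for HLA-F.

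The epithelial cells were then divided by TTR, the most abundant hepatic transcript, since its level differed so much between the libraries. Cells with at least 100 TTR UMIs per 10000 numbered 1468 in CNT and 514 in 3CK, and those from 10 up to that level 170 and 443. The 9 genes were higher in 3CK in both ranges. In the high range B2M stood at 1232 (CNT) and 10710 CPM (3CK), a log2 ratio of 3.12 (3.11 to 3.13), against 1345 and 8646 CPM and 2.68 (2.65 to 2.71) in the intermediate range. HLA-B had log2 ratios of 4.45 (4.43 to 4.48) and 3.97 (3.91 to 4.03). TAP1 and TAP2 were higher in the intermediate range of 3CK, at 637 and 193 CPM, than in the high range, at 544 and 154 CPM.

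Rarer epithelial groups had fewer than 50 cells in a library, so only their levels are given. Cells with FABP2 and RBP2, transcripts of absorptive enterocytes, numbered 125 and 18 and had the highest treated B2M level of the epithelial groups named here, 16549 CPM (16259 to 16843) against 2318 CPM (2276 to 2360) in CNT. HLA-B stood there at 286 and 7695 CPM. Cells with CHGA, an enteroendocrine granule protein, numbered 12 and 3, with B2M at 933 and 12646 CPM. Epithelial barcodes with at least 5 UMIs of 5 cell cycle genes per 10000 numbered 77 and 41, and most were shallow, with medians of 1681 and 5063 UMIs. At the CNT median 1 UMI could place a barcode there, and at the 3CK median a few could. Their B2M level was 845 CPM (799 to 893) in CNT and 6942 CPM (6829 to 7056) in 3CK. The treated level was above the untreated level in each of these groups for all 9 genes.

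Barcodes rich in MALAT1, a nuclear RNA, with at least 300 of its UMIs per 10000, had lower levels of the abundant members but not of TAP2. There were 220 such barcodes in CNT and 176 in 3CK. B2M stood at 607 (CNT) and 4211 CPM (3CK) and HLA-B at 138 and 2505 CPM, with TAP1 at 7.93 and 447 CPM, whereas TAP2 stood at 7.31 CPM (5.37 to 9.72) and 205 CPM (195 to 215). The log2 ratios there were 2.79 (2.75 to 2.84) for B2M and 4.81 (4.39 to 5.26) for TAP2. Each member except TAPBP, at 2.15 (2.00 to 2.31) against 2.20, had a log2 ratio above its value over all cells. For HLA-G, TAP1 and TAP2 the intervals overlapped those over all cells. HLA-B had 4.18 (4.08 to 4.28), HLA-C 3.55 (3.46 to 3.64) and HLA-E 3.35 (3.20 to 3.51). HLA-F had 8.34 (6.98 to 10.2) from 4 UMIs in CNT.

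Depth differed between the libraries, and the ratios were measured on both sides of a boundary of 10000 UMIs. In the 1029 CNT and 403 3CK barcodes under it, the log2 ratio was 2.73 (2.67 to 2.79) for B2M, 3.84 (3.70 to 3.98) for HLA-B and 5.11 (4.53 to 5.75) for TAP1. In the 1458 and 995 barcodes at or above it, the values were 2.71 (2.70 to 2.72), 3.91 (3.90 to 3.93) and 5.51 (5.42 to 5.59).

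To compare single cells at 1 depth, each cell was thinned at random to 5000 UMIs, and 943 cells of CNT and 335 of 3CK were too shallow for this. In CNT, class I transcripts were caught in part of the epithelial cells. B2M was detected in 90.9% of 1062 epithelial cells (89.0 to 92.5), HLA-C in 63.5% (60.5 to 66.4), HLA-B in 50.4% (47.3 to 53.4), HLA-E in 38.8% (35.9 to 41.8) and TAPBP in 26.9% (24.3 to 29.7). TAP1 was detected in 2.92% (1.99 to 4.12), TAP2 in 2.26% (1.45 to 3.34), and HLA-F and HLA-G in 0.659% each (0.265 to 1.35). No cell class here should lack class I transcripts, so the share that free RNA alone would give was not measured from these genes. TTR stood at 64857 CPM in the epithelial and 1408 CPM in the mesenchymal class of CNT, and the part of free RNA in this was not tested.

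In 3CK nearly every epithelial cell at the same depth carried the abundant members. B2M was detected in all 776 epithelial cells, HLA-B in 99.6% (98.9 to 99.9), HLA-C in 99.5% (98.7 to 99.9) and HLA-E in 95.2% (93.5 to 96.6). TAP1 was detected in 87.6% (85.1 to 89.9), TAPBP in 74.5% (71.3 to 77.5), HLA-F in 74.0% (70.7 to 77.0) and TAP2 in 57.2% (53.6 to 60.7). HLA-G remained rare, in 7.47% (5.72 to 9.56). Without thinning the epithelial shares were 4.76% in CNT and 85.4% in 3CK for HLA-F, and 2.11% and 39.8% for HLA-G, at median depths of 37785 and 72198 UMIs.

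In the mesenchymal class, 320 CNT and 107 3CK cells were deep enough. HLA-B was detected in 75.9% (70.9 to 80.5) of them in CNT, above its epithelial share, and in 98.1% (93.4 to 99.8) in 3CK. In CNT it was detected more often than HLA-C (72.8%, 67.6 to 77.6), the reverse of the epithelial order, though these intervals overlap. TAP1 was detected in 8.75% (5.89 to 12.4) and 77.6% (68.5 to 85.1), and TAP2 in 4.69% (2.65 to 7.61) and 33.6% (24.8 to 43.4). The treated TAP2 share was below that of epithelial cells, as its CPM was.

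The difference between the libraries was spread over the cells rather than held by a few of them. The sum of the 9 genes had a median of 8 UMIs per thinned epithelial cell in CNT (5th to 95th percentile 1 to 29) and 99 in 3CK (31 to 199). In mesenchymal cells the median was 14 (2 to 45) in CNT and 100 (21 to 167) in 3CK. Of the 3CK epithelial cells, 704 of 776 (90.7%, 88.5 to 92.7) were above the 99th percentile of CNT epithelial cells. Of the 3CK mesenchymal cells, 67 of 107 (62.6%, 52.7 to 71.8) were above that of CNT mesenchymal cells, which was higher, at 84 against 45 UMIs.

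Treated cells at an untreated level were few. Only 3 of 776 3CK epithelial cells (0.387%, 0.0798 to 1.13) and 2 of 107 mesenchymal cells (1.87%, 0.227 to 6.59) lay at or below the CNT median of their class. Both of these mesenchymal cells had MALAT1 at 300 or more per 10000, as did 7 of the other 105, and none of the 3 epithelial cells did. For single genes, B2M had a median of 4 UMIs in CNT and 45 in 3CK epithelial cells, HLA-B 1 and 24, HLA-C 1 and 17, and TAP1 0 and 3. The median epithelial cell had UMIs of 3 of the 9 genes in CNT and of 7 in 3CK.

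**Figure D4:**
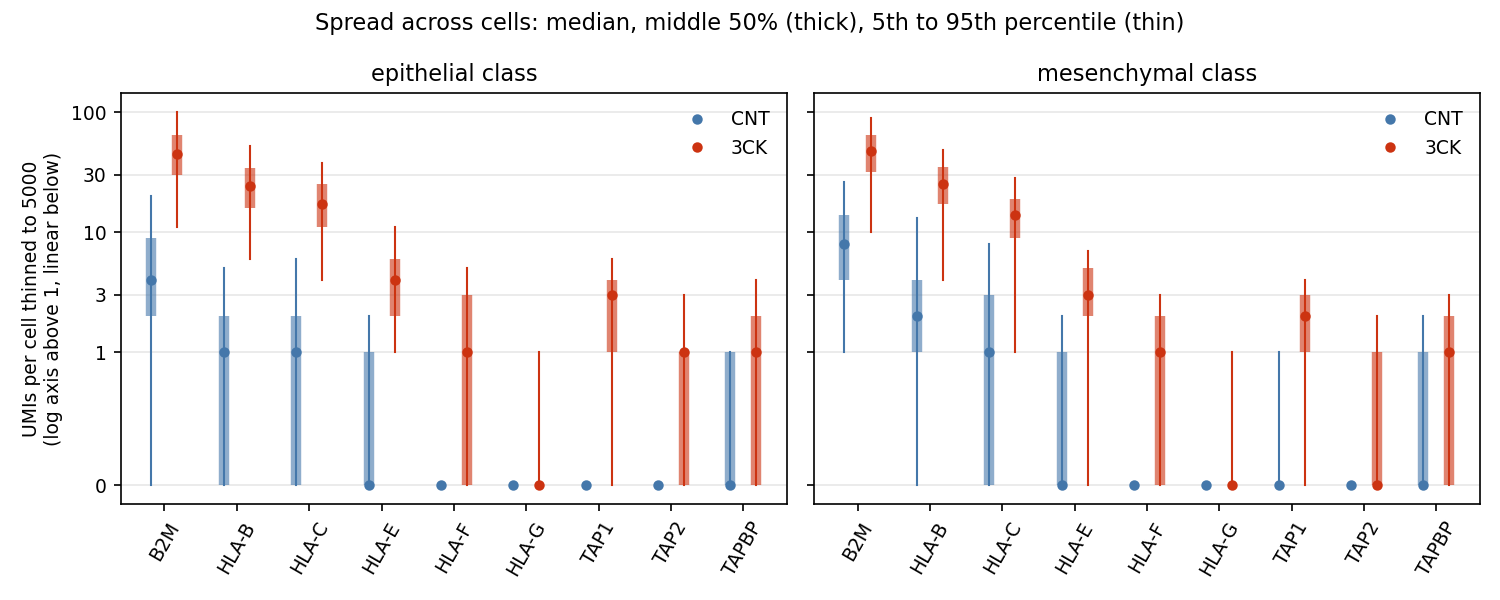
UMIs per cell of each of the 9 genes after thinning every cell to 5000 UMIs (log axis above 1, linear below), in epithelial (left) and mesenchymal (right) cells of CNT (blue) and 3CK (red); points are medians, thick bars the middle 50% and thin bars the 5th to 95th percentile of cells. The 3CK median of B2M is 45 in epithelial and 47 in mesenchymal cells, against 4 and 8 in CNT, and the median of HLA-G is 0 in all 4 groups.

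Among treated epithelial cells the 9 genes varied together to very different degrees. In 689 cells of 3CK thinned to 20000 UMIs, all 36 pairs had a Spearman's rho above 0. The share of pairs of other genes above 0 was not counted. These cells share 1 library and 1 depth, so the values describe that library, and near-identical HLA sequences can add to the values between HLA genes. The highest was between HLA-B and HLA-C, 0.87. B2M had 0.70 with HLA-B and 0.69 with HLA-C, and HLA-F had 0.61 with HLA-C. TAP1 and TAP2 had 0.44 with each other.

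The transporter followed B2M less closely than the heavy chains HLA-B and HLA-C did. B2M had a rho of 0.18 with TAP1 and 0.03 with TAP2, and HLA-B had 0.28 and 0.18. TAP1 had 0.37 with HLA-E, 0.33 with TAPBP and 0.27 with HLA-F, and TAP2 had 0.26 with TAPBP and 0.24 with HLA-E. For comparison, the middle 95% of 8270 other genes ran from -0.39 to 0.32 against B2M and from -0.10 to 0.17 against TAP1. TAP1 had 0.45 with IRF1, a transcription factor of the interferon-γ response, and B2M had 0.24. With NLRC5, the class I transactivator, B2M had -0.29, HLA-B -0.17 and TAP2 0.27. With MALAT1, B2M had -0.37 and TAP2 0.20, and with EPCAM B2M had 0.54 and TAP2 0.05, so B2M and TAP2 had opposite signs with the nuclear RNA. The part of cell composition and RNA quality in these values was not tested.

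The genes most like B2M across the treated epithelial cells, among those with a UMI in at least 20% of cells and not named HLA, were SPINT2 (0.62), MYL12A (0.57), MYL12B (0.57), CD63 (0.56) and TMSB4X (0.56). The genes most like TAP1 were IRF1 (0.45), GBP5 (0.43), WARS (0.42), GBP1 (0.41) and IFIT3 (0.40). In these cells, those nearest to B2M are broadly expressed membrane and cytoskeleton genes, and those nearest to TAP1 are known as interferon-induced genes. This contrast is read from these cells at this depth alone. In treated mesenchymal cells IFI6 (0.69), BST2 (0.64), ITM2B (0.64), IFITM1 (0.60) and TMEM59 (0.60) were nearest to B2M. In untreated epithelial cells IFI27 (0.52) was. With treated epithelial cells thinned to 10000 UMIs, EPCAM and TPT1 entered the B2M list and ICAM1 headed that of TAP1.

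In 948 untreated epithelial cells 34 of 36 pairs were above 0, and 31 of 36 were lower than in treated ones: HLA-B and HLA-C had 0.61, B2M and HLA-C 0.54, and TAP1 and TAP2 0.10. The other 5 were higher in CNT, the widest being B2M with TAPBP, at 0.22 against 0.11. TAP1 and TAP2 were detected in 13.8% and 8.44% of these untreated cells, and HLA-F and HLA-G in 2.53% and 2.00%. A low value of a pair with any of these genes therefore carries little. How many pairs of other genes were lower in CNT was not counted. In 300 untreated mesenchymal cells HLA-B and HLA-C had 0.76, and in 103 treated ones 0.80. Between these mesenchymal cells 24 of 36 pairs were lower in CNT and 12 higher. TAP1 in treated mesenchymal cells had 0.57 with HLA-E, 0.52 with PSMB9 and 0.51 with CXCL10.

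**Figure D5:**
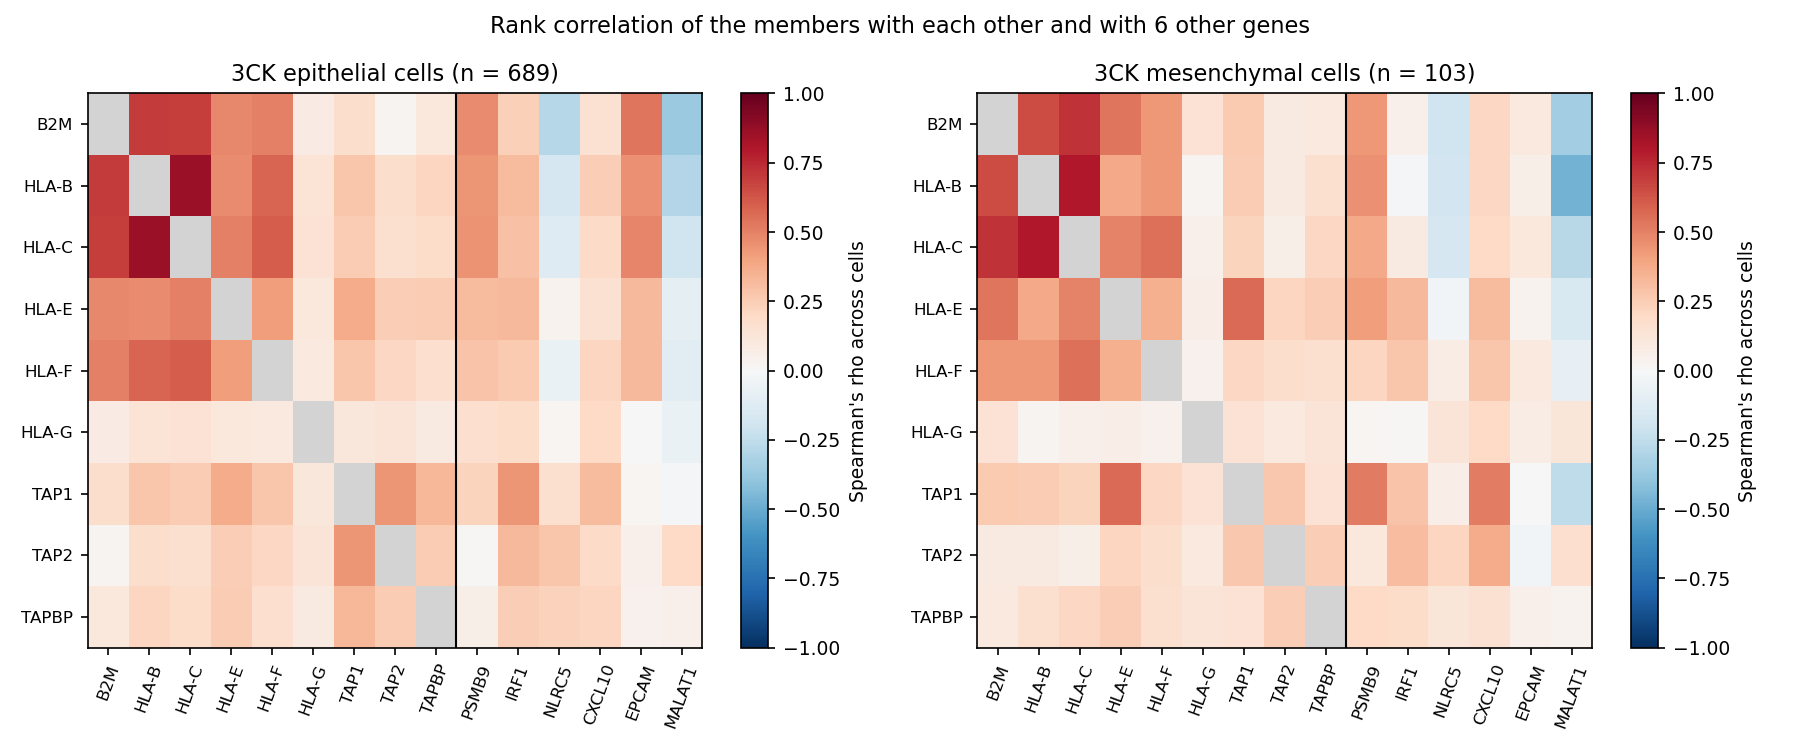
Spearman's rho across cells thinned to 20000 UMIs between the 9 genes (rows and left columns) and 6 other genes (right of the black line), in epithelial (left, 689 cells) and mesenchymal (right, 103 cells) cells of 3CK; colour runs from -1 (blue) to 1 (red) and grey is a gene with itself. The darkest red square off the diagonal is HLA-B with HLA-C (0.87 and 0.80), and the MALAT1 column is blue for B2M (-0.37 and -0.35).

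Other genes of the pathway were counted from lists, leaving out those under 1 CPM in both libraries. At that minimum 6.96% of all genes were at least 2-fold higher and 11.3% at least 2-fold lower. Of 7 transactivators, 2 were at least 2-fold higher in 3CK over all cells and none lower. NLRC5 stood at 2.53 (CNT) and 66.5 CPM (3CK), a log2 ratio of 4.71 (4.54 to 4.90), and IRF1 at 23.3 and 376 CPM (4.01, 3.95 to 4.07). The remaining 5, which include the RFX subunits that bind class I promoters, had smaller ratios, the lowest being RFXAP at -0.08 (-0.28 to 0.12). NLRC5 was also higher in the mesenchymal than the epithelial class of CNT, with a log2 ratio of 2.71, and level in 3CK, at -0.10.

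All 5 genes of the immunoproteasome and its activator PA28 were at least 2-fold higher. PSMB9, a catalytic subunit that lies beside TAP1 in the genome, stood at 7.77 (CNT) and 624 CPM (3CK), a log2 ratio of 6.33 (6.23 to 6.43). PSME2 was the most abundant, at 157 and 922 CPM, and PSME1 had the smallest log2 ratio, 1.95 (1.92 to 1.98). The log2 ratio of mesenchymal over epithelial was 3.48 in CNT and 0.13 in 3CK for PSMB9, and 2.47 and 0.22 for PSMB8. In these sums all 5 were above 0 in both libraries, whereas TAP1 had 1.26 in CNT and -0.53 in 3CK. The lowest of the 5 in 3CK was PSME1, at 0.08. TMM factors moved the median of all genes in 3CK from 0.07 to -0.11, and the 5 genes were not read with them, so their sign in 3CK may depend on the scaling. None of the 3 constitutive catalytic subunits that these replace was 2-fold higher, with log2 ratios from 0.38 (PSMB6) to 0.72 (PSMB7).

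Of 7 trimming and loading genes, 3 were at least 2-fold higher and none lower (2 with each cell weighted equally). These were the aminopeptidases ERAP1 (1.23) and ERAP2 (2.75, from 8.44 to 56.9 CPM), which shorten peptides, and the tapasin relative TAPBPL (2.67). The general chaperones did not follow: CALR stood at 486 and 523 CPM, and HSPA5 had the lowest log2 ratio, -0.39 (-0.41 to -0.36). Class I-like proteins and stress ligands of the NKG2D receptor went both ways. Of 12, 8 had at least 1 CPM, and 1 of these, the stress ligand MICB, was at least 2-fold higher, a share near the background of 6.96%, at 2.48 and 13.6 CPM (2.45, 2.26 to 2.65). FCGRT, the neonatal Fc receptor that also pairs with B2M, had the lowest log2 ratio, -0.79 (-0.84 to -0.74), from 93.2 CPM in CNT to 53.8 CPM in 3CK.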

How the data were processed

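The authors deposited 1 matrix per library of raw UMI counts. Per the file headers these come from Cell Ranger 7.1.0. The submitters' processing notes name GRCh38, and the annotation is not given in the sources used here. Barcodes with at least 500 genes and at most 20% mitochondrial UMIs were kept, and the highest Scrublet scores (scanpy 1.11.5) were removed as doublets at 0.8% per 1000 barcodes. UMIs were summed per library and class and scaled to CPM. Sums carry exact Poisson intervals, while ratios carry exact binomial intervals. Clopper-Pearson intervals were used for shares of cells. With 1 library per group no test was made. The ratio formula and its interval were run on simulated counts that hold counting error only, without variation between cells or libraries. Background shares are over genes with at least 10 CPM in either group; lists are read at 1 CPM or more. Motifs, windows and thinning used Python 3.11.15 and scipy 1.17.1.

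The members and lists were chosen with earlier results of these data known. The text names all members, NLRC5, IRF1, each list's most abundant gene and its largest and smallest ratios, and the 5 genes most like B2M and TAP1. PSMB8, ERAP1, TAPBPL, MALAT1, EPCAM, CXCL10, marker genes and the shared-window check were chosen after values were seen. So were the genes most like B2M or TAP1 in other cells or at another depth. Alternatives changed the barcode filter, doublets, depth, MALAT1-rich barcodes, scaling, cell weights, class boundaries and thinning. 1 gene of the transactivator list is not reported here, and the list was counted without it.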

Additional observations from a re-analysis of the deposited data

How the results depend on the processing

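The counts of 9 members at least 2-fold higher in 3CK, over all cells and in each class, held under every alternative run (10 for all cells, 12 for each class), and so did the count of 0 in the mesenchymal class of 3CK. The median log2 ratio of the 9 genes ranged from 3.82 to 4.00 over all cells, from 4.2 to 4.47 in epithelial and from 2.75 to 3.02 in mesenchymal cells. The count of members at least 2-fold higher in the CNT mesenchymal class, 4, was 1 with TMM factors and 1 with each cell weighted equally, and the count with an epithelial gap of at least 1, 5, was 3 with each cell weighted equally; the cause was not tested. Both counts stood at 4 and 5 with equal weights among cells of at least 10000 UMIs, an alternative chosen after seeing the data. No member with a called difference turned its direction. No paired analysis was possible because each group has 1 library. Depth limits HLA-G (95 UMIs in CNT) and the mesenchymal class of 3CK (124 cells).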
